A study of Mus musculus with 160 samples.

Results

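The genes described are the secreted Wnt antagonists Sfrp1, Sfrp2, Sfrp4, Sfrp5, Frzb, Dkk1, Dkk2, Dkk3 and Wif1, chosen by name, with earlier results of these cells known, and found as 9 of the 22866 gene names in the expression table. RNA had been sequenced in 160 single stromal cells from the bone marrow of C57BL/6J mice, 82 from young and 78 from old animals. The sample labels give the ages as 9 weeks and 24 months, and the protocol gives 10 weeks and 2 years. All cells of both ages had been sorted as CD45-Ter119-CD31-LepR+CD140a+, that is, as positive for the leptin receptor and the PDGF receptor alpha and negative for blood, erythroid and endothelial surface markers, and no other treatment or allele is named. No label ties a cell to an animal, so each age counts as 1 sample, no test was made, and intervals are exact (Clopper-Pearson) 95% intervals of a share of cells that cover counting error only.

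Wnt proteins are secreted signals that bind Frizzled receptors and the co-receptors Lrp5 and Lrp6, and in bone this signal favours the formation of osteoblasts. Secreted Frizzled-related proteins (the Sfrp genes and Frzb, which is also called Sfrp3) carry a domain like the Wnt-binding part of Frizzled, and Wif1 holds Wnt proteins through a domain of its own. Dkk1 and Dkk2 act on the co-receptors instead, together with Kremen proteins, whereas Dkk3 is a divergent member of the Dkk family.

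Values are FPKM (fragments mapped to a gene, scaled to the length of its transcript and to the mapped fragments of the cell), so genes of different length can be set side by side. A gene was called listed in a cell at 1 FPKM or more. Read numbers per cell were not given in the sources used here, so the depth is unknown. Young cells listed a median of 1114.5 named genes (range 129 to 2129) and old cells 1160 (range 193 to 2779). A value of 0 can be a failed estimate, since Gapdh, a gene nearly every cell uses, stood at 0 in 91 of 160 cells. Cxcl12 was listed in 82 young and 77 old cells, Lepr in 78 and 71 and Adipoq in 78 and 68, whereas Pdgfra, the RNA of the other gated receptor, was listed in 28 and 30. None of 5 endothelial and 6 blood markers was listed in any cell. Xist was listed in 54 old and 0 young cells and Y-linked RNA in 34 young and 0 old cells, and the protocol counts captured wells separately for each age, so age, sex-linked RNA and capture cannot be told apart in any comparison of the ages.

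Sfrp2 was listed in more old than young cells and Wif1 in fewer, so their promoters are shown. For Wif1 the intervals of the shares overlapped between the ages. No cell listed both genes, but the product of their shares gives only 1.1 old and 0.18 young cells. RefSeq promoters (GRCm38.p6, 250 bases before to 50 after the annotated start) matched 6 of the 9 genes. Those not matched were Sfrp1, Sfrp4 and Dkk3. The expression values were made on mm9, so these sequences were matched by gene symbol and not by position. Capitals mark CG dinucleotides, the sites that DNA methylation uses in mammals.
Sfrp2, chr3:83766071-83766370, plus strand: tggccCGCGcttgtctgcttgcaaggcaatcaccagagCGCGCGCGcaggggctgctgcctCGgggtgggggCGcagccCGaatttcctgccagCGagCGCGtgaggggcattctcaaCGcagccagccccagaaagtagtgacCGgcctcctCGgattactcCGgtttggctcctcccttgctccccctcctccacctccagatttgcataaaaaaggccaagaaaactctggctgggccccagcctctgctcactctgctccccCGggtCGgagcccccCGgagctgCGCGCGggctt
Wif1, chr10:121033754-121034053, plus strand: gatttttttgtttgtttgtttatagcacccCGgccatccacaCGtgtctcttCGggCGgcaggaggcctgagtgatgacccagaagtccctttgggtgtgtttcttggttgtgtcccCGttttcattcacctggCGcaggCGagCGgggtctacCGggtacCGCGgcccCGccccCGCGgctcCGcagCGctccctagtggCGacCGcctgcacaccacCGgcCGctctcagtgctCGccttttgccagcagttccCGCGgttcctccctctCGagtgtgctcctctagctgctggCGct

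The Sfrp2 window holds 22 CG dinucleotides and the Wif1 window 25. At least as many stand in 23.1% and 18.4% of all 32851 promoter windows, whose median is 7. The other matched windows hold 20 (Frzb), 15 (Sfrp5), 11 (Dkk2) and 9 (Dkk1). The letters CTTTGAT of the TCF/LEF motif, through which Wnt target genes are read, are in none of the 6 windows on either strand, and in 3.73% of all windows. The letters TATAAA of the TATA box, searched on both strands at any position, are in the windows of Wif1, Dkk1 and Dkk2, and in 13.6% of all windows. In the Wif1 window they are on the opposite strand, near the beginning of the window and far from the annotated start. That match is therefore not placed as a TATA box of the gene. TGTGGT, the RUNX motif, is in those of Sfrp5 and Dkk1, and in 16.8% of all. Overlap between matches of different motifs was not examined, and a match is a description of the window only.

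Sfrp4 was the antagonist listed in most cells of both ages, followed by Sfrp1 in young and by Sfrp2 in old cells. Sfrp2 was listed in 1 young and 17 old cells, Wif1 in 15 young and 5 old cells, and Dkk3 in 6 cells of each age. Dkk2 was listed in 1 young cell, and Dkk1, Frzb and Sfrp5 in none of the 160.

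**Figure D1:**
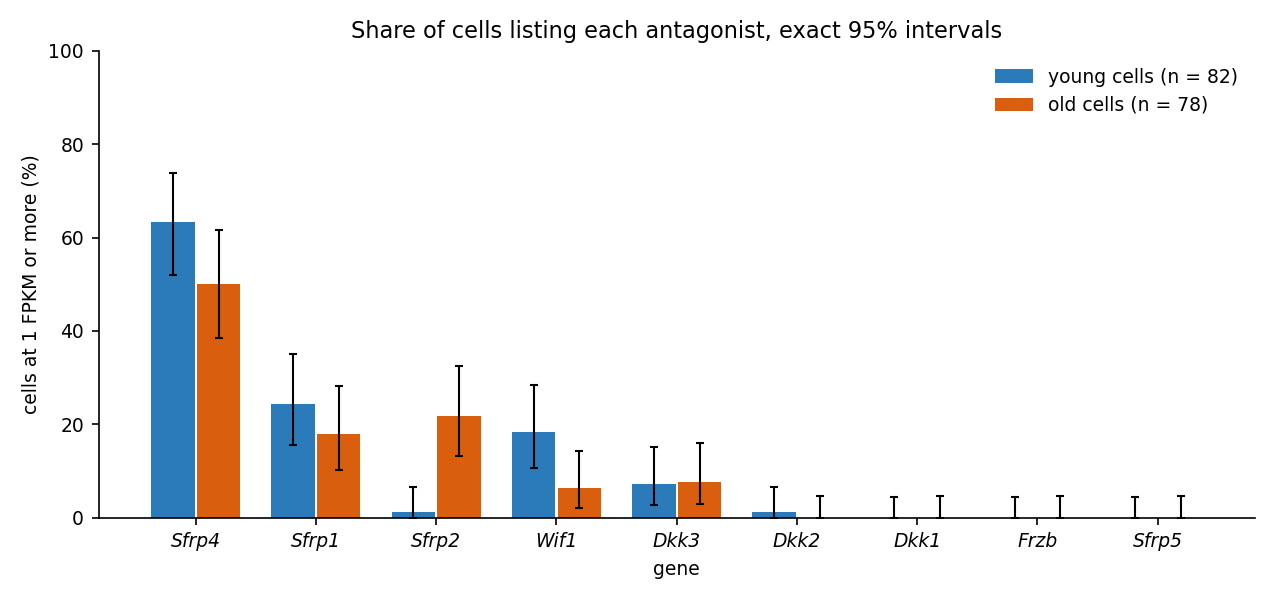
Share of cells (%, vertical axis) listing each antagonist at 1 FPKM or more, for 82 young (blue) and 78 old cells (orange), with exact 95% intervals as bars. The intervals of Sfrp2 lie apart, and those of the other genes overlap between the ages.

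Sfrp4 is a secreted Frizzled-related protein whose loss is known to thin cortical bone. It was listed in 52 of 82 young cells (63.4% with bounds 52 and 73.8) and in 39 of the 78 from old mice (50%, 95% bounds 38.5, 61.5). Over all young cells its FPKM ran from 0 through a median of 11.3 to 801, and over all old cells from 0 through a median of 0.877 to 4046. Within the cells that listed it the medians were close, at 56.3 FPKM in young and 58.2 in old cells. The groups overlapped over nearly the whole range, and the intervals of the shares overlapped too. What difference there was lay in the share of cells near 0 rather than in the median of listing cells. Without cells that held under 50% of their age's median gene number the shares were 66.2% in young and 62.1% in old cells. Among cells within the interquartile range of gene numbers they were 55% and 50%. In the cells that listed it, Sfrp4 stood at a median rank of 216 among all named genes in young and 289 in old cells, so it was among their more abundant RNAs.

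The mean log2(FPKM + 1) of Sfrp4 was 3.59 in young cells (SD over cells 3.16, n = 82) and 2.85 in old cells (SD over cells 3.21, n = 78), a difference of -0.74. Mean FPKM had the other order, 77.4 in young and 99.1 in old cells, and 1 old cell held 52.3% of the summed Sfrp4 FPKM of its age. Without the highest cell of each age the means were 68.5 and 47.9. The difference also moved with the number of genes per cell. It was -0.38 without cells that held under 50% of their age's median gene number, and -0.06 among cells within the interquartile range of gene numbers.

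Sfrp1, which binds Wnt proteins and restrains bone formation in mice, was listed in 20 young cells (24.4% with bounds 15.6 and 35.1) and 14 old cells (17.9%, interval 10.2 to 28.3). Its listing values ran from 1.18 through a median of 9.13 to 83.1 FPKM in young cells and from 2.01 through 5.30 to 133 FPKM in old cells. The intervals of the shares overlapped, as did the values, and the difference of mean log2 was -0.19. Mean FPKM was 3.96 in young (SD over cells 12) and 4.54 in old cells (SD over cells 19.8), far below the means of Sfrp4.

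Sfrp2, a Frizzled-related protein made by many fibroblasts, was listed in 1 of 82 young cells (1.22%, 95% bounds 0.0309, 6.61) and in 17 of 78 old cells (21.8% with bounds 13.2 and 32.6). The young cell stood at 10.6 FPKM and the other 81 at 0. The old cells ran from 0 to 1158 FPKM, with a median of 44.9 among the 17 listing cells, of which 14 were at 10 FPKM or more and 6 at 100 FPKM or more. A further 8 old cells, and no young cell, had a value above 0 but below 1 FPKM. The groups therefore overlapped only at 0 and in the range of the single young cell. Mean log2(FPKM + 1) was 0.04 in young (SD over cells 0.39) and 1.21 in old cells (SD over cells 2.45), a difference of 1.17. The old cell with the highest value held 51.6% of the Sfrp2 FPKM of its age, and the old mean was 28.8 FPKM with it and 14.1 without it. The table has 2 rows named Sfrp2, which were summed. The row listed in most cells was listed in 1 young and 16 old cells by itself. Without the cells of few genes the share was 20.7% in old and 1.47% in young cells.

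Wif1, the Wnt inhibitory factor, was listed in 15 young cells (18.3%, interval 10.6 to 28.4) and 5 old cells (6.41%, 95% bounds 2.11, 14.3). The young values ran from 1.14 through a median of 6.28 to 107 FPKM, and the 5 old values were 5.70, 23.6, 32.8, 49.6 and 73.7 FPKM. Fewer old than young cells carried it, but 4 of the 5 old values lay above the young median. The intervals of the shares overlapped, and the difference of mean log2 was -0.34. A value above 0 but below 1 FPKM stood in 11 further young and 3 further old cells.

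**Figure D2:**
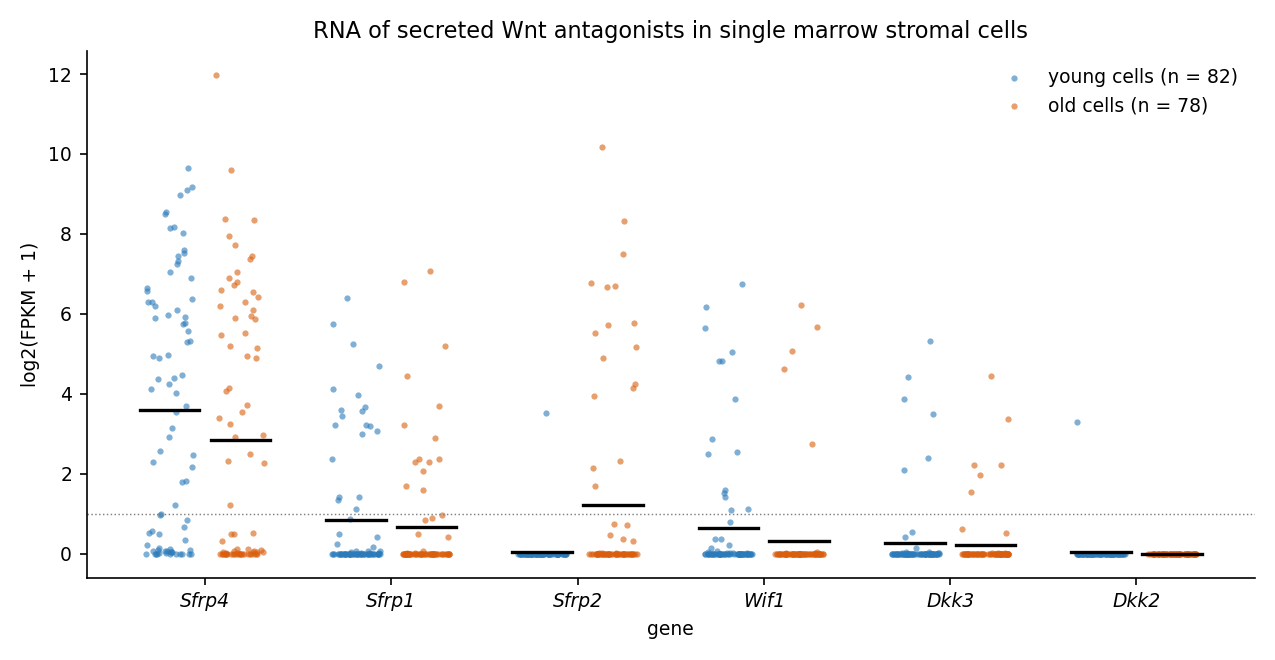
log2(FPKM + 1) of each antagonist listed in any cell (vertical axis) in each of 82 young (blue) and 78 old (orange) cells, 1 point a cell, with black bars for the mean and a dotted line at 1 FPKM. Sfrp2 is at 0 in all young cells but 1, and the highest point is an old cell with 4046 FPKM of Sfrp4.

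The Dickkopf genes were listed in few cells or none. Dkk3 was listed in 6 young (7.32% with bounds 2.73 and 15.2) and 6 old cells (7.69%, interval 2.88 to 16). Its young values were 3.27, 4.28, 10.2, 13.7, 20.5 and 39.3 FPKM. The old values were 1.91, 2.95, 3.64, 3.66, 9.44 and 20.7 FPKM, which overlap the young ones while 4 of the 6 young values and 1 of the 6 old values reached 10 FPKM. Dkk2 was listed in 1 young cell, at 8.91 FPKM, and in no old cell. Dkk1, an inhibitor known from osteocytes and osteoblasts, was at exactly 0 in all 160 cells, as were Frzb and Sfrp5. For scale, 3 cells would make a share of 3.66% of the 82 young and 3.85% of the 78 old cells. For these 3 genes, with 0 cells listed, the exact 95% intervals reach up to 4.4% in young and 4.62% in old cells. These limits hold for cells listed at 1 FPKM and not for cells that use the gene.

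Of the 9 antagonists, 4 (Sfrp1, Sfrp2, Sfrp4 and Wif1) were listed in at least 10% of the 160 cells and could be placed among all 3189 genes that passed the same filter. Over those genes the difference of mean log2 had a median of -0.02 (quartiles -0.26 and 0.21). Sfrp2 was at least 0.5 higher in old cells, as were 8.22% of all genes, and 25 of the 3189 had a larger difference than its 1.17. Sfrp4 was at least 0.5 lower in old cells, as were 10.3% of all genes, and 137 had a lower difference than its -0.74. Sfrp1 and Wif1 lay within 0.5 of 0. The exact intervals of the shares lay apart, with old cells higher, for Sfrp2 and for 0.909% of all genes. They lay apart with old cells lower for none of the 4 and for 2.2% of all genes. Sfrp2 passed the filter through the age in which it is high, with 17 old cells and 1 young cell. Its place and its separate intervals are therefore not independent of the filter. Because the genes were also chosen with earlier results known, these places describe them and support nothing further.

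**Figure D3:**
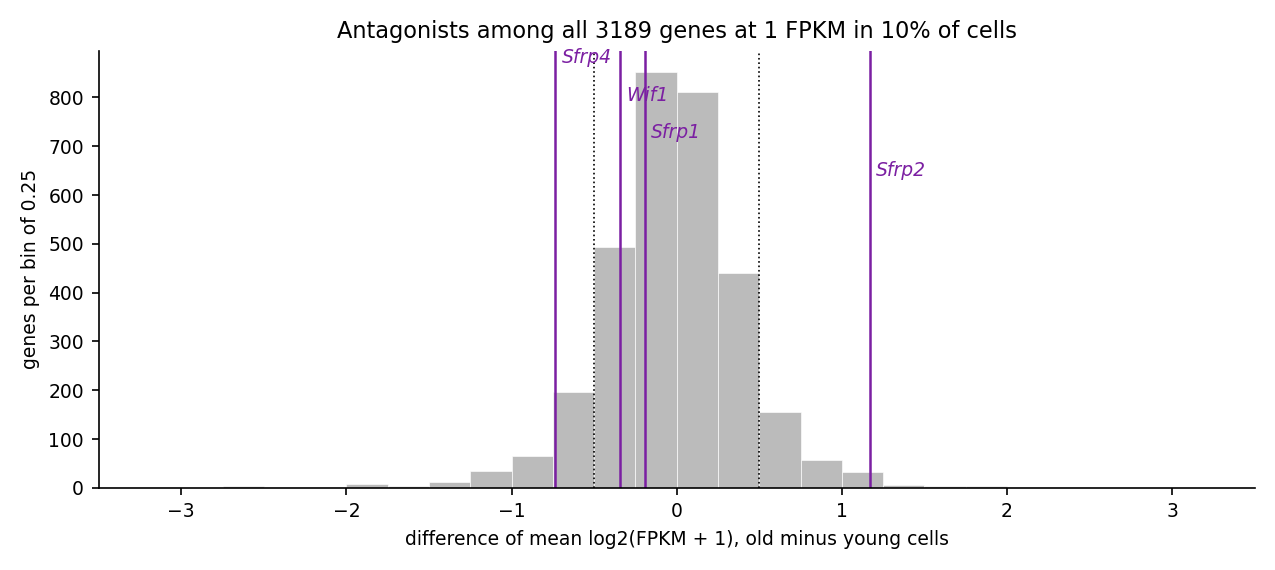
Number of genes (vertical axis) by the difference of mean log2(FPKM + 1), old minus young cells (horizontal axis), over 3189 genes listed in at least 10% of cells, with purple lines at the 4 antagonists that passed and dotted lines at 0.5 and -0.5. Sfrp2 lies at 1.17 and Sfrp4 at -0.74, outside the dotted lines, and Wif1 and Sfrp1 inside them.

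Most cells listed at least 1 antagonist, and fewer than 40% of either age listed 2 or more. At least 1 was listed in 64 young (78%, 95% bounds 67.5, 86.4) and 54 old cells (69.2% with bounds 57.8 and 79.2). At least 2 were listed in 28 young (34.1%, interval 24.0 to 45.4) and 21 old cells (26.9%, 95% bounds 17.5, 38.2), and at least 3 in 3 young and 5 old cells. No cell listed more than 4. Cells with more antagonists also had more genes. Young cells without an antagonist listed a median of 635 genes and those with 2 or more 1337.5, and in old cells the medians were 682.5 and 1366.

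Among cells with an antagonist, Sfrp4 alone was the most frequent combination, in 28 young and 22 old cells. Next in young cells came Sfrp1 with Sfrp4 (12 cells) and Sfrp4 with Wif1 (7 cells), and in old cells Sfrp2 alone and Sfrp2 with Sfrp4 (6 cells each). Sfrp1 and Sfrp4 met in 14 young and 7 old cells in all, where the product of their shares gives 12.7 and 7.0 cells. Sfrp4 and Wif1 met in 9 young and 2 old cells, with 9.5 and 2.5 from the product of shares. Sfrp2 and Sfrp4 met in 9 old cells, with 8.5 from that product, and Sfrp1 and Sfrp2 in 5, with 3.1. Sfrp4 and Dkk3 met in 3 young and 5 old cells, with 3.8 and 3 from the product. Sfrp1 and Wif1 met in 3 cells of each age, with 3.7 in young and 0.90 in old cells, the one pair that lay more than 2 cells from the product. Sfrp2 and Wif1 met in 0 cells of either age, but their shares give only 1.1 cells in old and 0.18 in young, so these cells are too few to show more or less overlap than that.

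**Figure D4:**
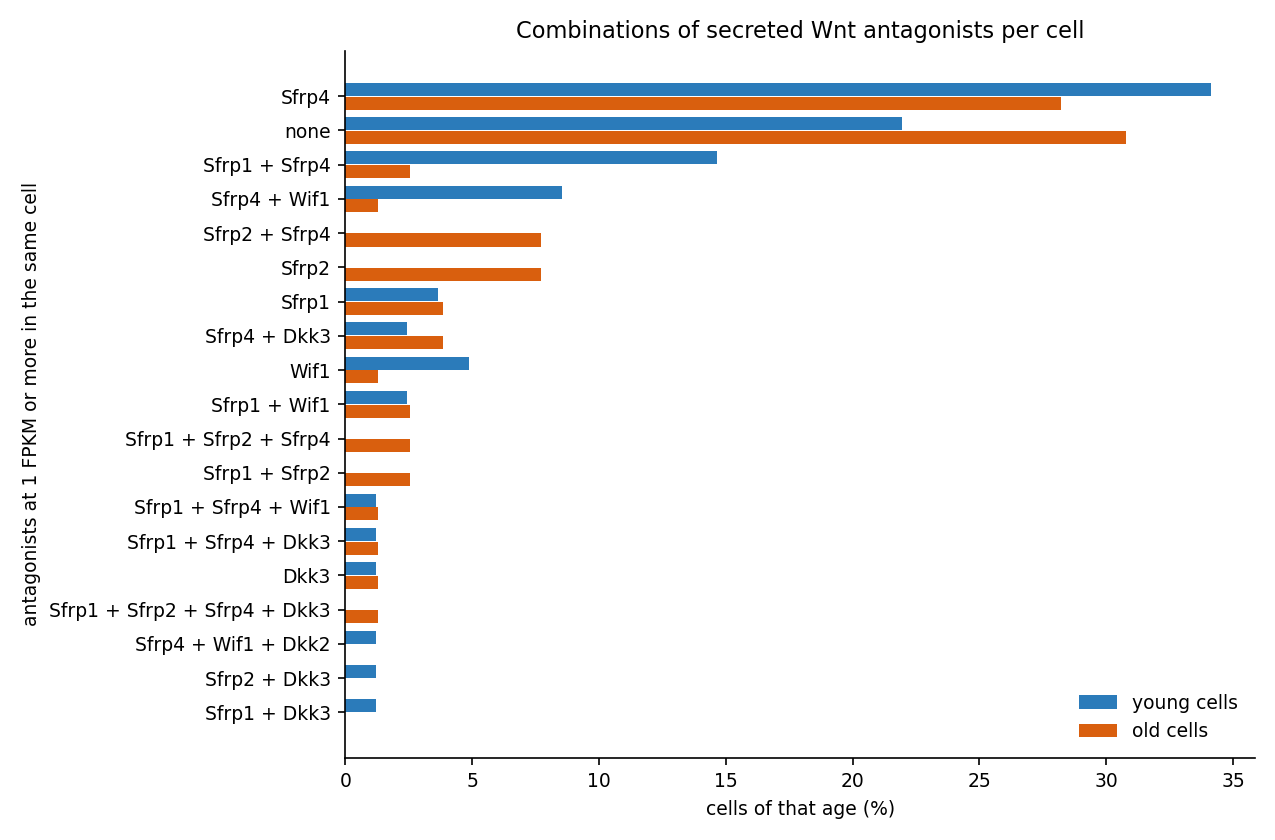
Share of cells of each age (%, horizontal axis) with each combination of antagonists at 1 FPKM or more in the same cell (vertical axis), for young (blue) and old (orange) cells. Combinations with Sfrp2 are almost all in old cells, and Sfrp4 alone is the longest bar among combinations with an antagonist.

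Each of Sfrp4, Sfrp1 and Wif1 was listed in a larger share of the cells with more genes, in both ages. Among young cells above the median gene number of their age 75.6% listed Sfrp4, and among the rest 51.2%. In old cells the shares were 71.8% and 28.2%. For comparison, the median share over all 3189 genes was 26.8% and 12.2% in the same sets of young cells and 25.6% and 10.3% in those of old cells. Sfrp2 was at 25.6% above the median and 17.9% in the rest of the old cells. Sfrp1 was at 34.1% and 14.6% in young and 20.5% and 15.4% in old cells. Wif1 was at 22% and 14.6% in young and 10.3% and 2.56% in old cells. The exact intervals of the sets lay apart for Sfrp4 in old cells and overlapped for Sfrp4 in young cells, for Sfrp1 and Wif1 in both ages and for Sfrp2 in old cells.

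Most old cells that listed Sfrp2 also listed markers of marrow niche stroma, as did the other old cells. Cxcl12, the chemokine that holds blood stem cells in the marrow, was listed in 17 of these 17 cells and in 60 of the other 61. Adipoq, the hormone adiponectin, was in 15 (88.2%) and 53 (86.9%). Lepr was in 13 (76.5% with bounds 50.1 and 93.2) and 58 (95.1%, interval 86.3 to 99.0), and Foxc1, a transcription factor of niche stroma, in 14 (82.4%) and 34 (55.7%). Smaller shares of the cells with Sfrp2 listed Ebf3 (52.9% against 63.9%), Vcam1 (64.7% against 68.9%) and Kitl (76.5% against 80.3%). Pdgfra was in 8 (47.1%) and 22 (36.1%). The exact intervals of each of these niche markers overlapped between the sets. Over all genes but Sfrp2 the median difference in share between these sets of old cells was 1.25 points. At least 20 points higher were 5.21% of genes and at least 20 points lower 1.63%.

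The fibroblast markers Dcn and Lum were not in a larger share of the cells that listed Sfrp2. Of 8 fibroblast markers, Dpt, Pi16, Clec3b, Ly6a, Cd34 and S100a4 were listed in 0 of the 17 cells. Among the other 61 old cells Dpt, Pi16, Clec3b and S100a4 were also in 0, and Ly6a and Cd34 in 1 each. Those markers therefore cannot tell the sets apart. Dcn, the matrix proteoglycan decorin, was in 9 (52.9%, 95% bounds 27.8, 77) against 43 of the other 61 (70.5% with bounds 57.4 and 81.5), and Lum, lumican, in 1 against 10. The summed FPKM of the 8 markers had a median of 4.57 (range 0 to 487) in the 17 cells and 36 (range 0 to 6790) in the others. Between the ages Dcn stood in 34 young and 52 old cells, Lum in 22 young and 11 old cells. Osteoblast markers went both ways between these sets of old cells, and the exact intervals of each overlapped. Smaller shares of the cells with Sfrp2 listed Runx2 (10 of 17 against 41 of 61), Ibsp (14 against 55) and Spp1 (5 against 20). Larger shares of them listed Sp7 (2 against 2), Alpl (2 against 3) and Bglap (1 against 0), each from few cells. Col1a1 was in 3 of 17 and 11 of 61, and Dmp1 in none.

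Of 8 niche markers, 7 were listed in more of the old cells with Sfrp4 than of the others, where the median difference over all genes was 10.3 points. Lepr was at 94.9% and 87.2%, and Cxcl12 went the other way, at 38 of 39 cells against 39 of 39. The summed FPKM of the 8 markers had a median of 1425 in the cells with Sfrp4 and 1538 in the others. In old cells Vcam1, an adhesion molecule of niche stroma, was in 33 of the 39 cells listing Sfrp4 (84.6%) and in 20 of the 39 others (51.3%), and Ebf3, a niche transcription factor, in 30 and 18. Spp1, osteopontin, was in 17 and 8. The cells listing Sfrp4 held a median of 1366 genes and the others 672, and 21.7% of all genes were at least 20 points more frequent in the former. In young cells the gene numbers were nearer, 1213.5 and 938, with 7.56% of genes that much more frequent and 0.188% that much less. Lum was among them, in 20 of 52 cells listing Sfrp4 (38.5%, interval 25.3 to 53) and 2 of 30 others (6.67%, 95% bounds 0.818, 22.1). Vcam1 stood at 98.1% and 83.3% there, and Spp1 at 82.7% and 83.3%.

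Wif1 and Sfrp1 had fewer cells behind each share. All 15 young cells with Wif1 listed Spp1, against 53 of the other 67 (79.1%). Of the other osteoblast markers, Runx2 was in 11 and 37, Ibsp in 15 and 66, Col1a1 in 2 and 7 and Sp7 in 2 and 2. Alpl (1 and 6) and Dmp1 (0 and 1) went the other way, and Bglap was in none. Between these sets 11.2% of all genes were at least 20 points more frequent with Wif1 and 1.25% less. In the 5 old cells with Wif1 these background shares were 23% and 5.52%, so single markers are not read there. Young cells with Sfrp1 listed Ebf3 in 17 of 20 cells against 38 of 62, and Pdgfra in 10 against 18, beside 7.62% of genes at least 20 points more frequent and 0.596% less. Old cells with Sfrp1 listed Col1a1, the main collagen of bone, in 6 of 14 cells (42.9% with bounds 17.7 and 71.1) against 8 of 64 (12.5%, interval 5.55 to 23.2), beside 8.75% and 1.19% of genes. The other 7 osteoblast markers did not all go that way. Spp1 was at 50% and 28.1%, but Runx2 at 64.3% and 65.6% and Ibsp at 85.7% and 89.1%. Sp7, Alpl and Bglap were each in 1 of the 14 cells, against 3, 4 and 0 of the 64, and Dmp1 was in none. The intervals of Spp1 in young cells with and without Wif1 overlapped (78.2 to 100 and 67.4 to 88.1). Those of Ebf3, Pdgfra and Col1a1 also overlapped between the sets.

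The genes most like Sfrp4 in their pattern over cells were Serping1, Nop10 and Rpl14. Likeness was the mean of the Spearman correlations of FPKM in the 82 young and the 78 old cells, over 1080 other genes listed in at least 20% of the cells of each age. Serping1, the C1 inhibitor of complement, had rho of 0.46 in young and 0.37 in old cells. Nop10, a small nucleolar protein, had 0.32 and 0.50, and Rpl14, a ribosomal protein, 0.31 and 0.50. The median over all these genes was 0.15 in young and 0.23 in old cells. The number of genes per cell had a rho of 0.37 and 0.54 with Sfrp4, and its part in these likenesses was not tested. No other antagonist was listed in 20% of the cells of each age.

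Wnt ligands were listed in few of these cells. Of 19 Wnt genes, 14 were listed in no cell, and 1 passed the filter of 10% of cells, beside 3189 of all 22866 gene names. The share of all names that no cell listed is not given here. Wnt4 was listed in 12 young (14.6%, 95% bounds 7.80, 24.2) and 5 old cells (6.41% with bounds 2.11 and 14.3), and Wnt5a in 1 and 3. Any ligand was listed in 14 young and 9 old cells. An antagonist was listed in 11 of those 14 young cells (78.6%) and in 53 of the 68 without a ligand (77.9%). In old cells it was listed in 9 of 9 with a ligand (interval 66.4 to 100) and 45 of 69 without (65.2%, interval 52.8 to 76.3). Wls, the carrier that brings Wnt proteins to the cell surface, was listed in 30 young and 20 old cells, more often than any ligand, and Porcn, the enzyme that adds their lipid, in 3 and 5.

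Receptors were listed at low shares in both ages. Of 18 Frizzled and co-receptor genes, 3 passed the filter of 10% of cells, as did 3189 of all 22866 gene names. Of these 3, 0 differed by 0.5 in mean log2, beside 8.22% of all genes higher and 10.3% lower in old cells. With 3 genes, a count of 0 cannot be told apart from those shares. Ryk, a Wnt co-receptor, stood in 15 young and 17 old cells, Fzd1 in 11 young (13.4%) and 18 old cells (23.1%). The Dkk partners Lrp5 and Lrp6 were listed in 2 and 3 young and 0 and 6 old cells, Kremen1 in 3 and 2, and Kremen2 in none. R-spondins, secreted proteins that strengthen the Wnt signal, and their receptors had 3 of 9 genes past the filter and 1 of them at least 0.5 higher in old cells, beside 8.22% of all genes. Rspo2 was listed in 3 young (3.66%, 95% bounds 0.761, 10.3) and 14 old cells (17.9% with bounds 10.2 and 28.3), with a difference of 0.54. It too passed the filter mainly through the old cells. Among old cells Rspo2 was in 3 of 17 with Sfrp2 and 11 of the other 61, that is, at 17.6% and 18%. Rspo3 was listed in 13 and 14 cells, and Lgr4, a receptor for R-spondins, in 36 and 31.

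Of 10 other inhibitors 2 passed the filter, and of 15 genes of the inner part of the pathway 6 did, beside 3189 of all 22866 gene names. In each list 1 gene was at least 0.5 lower in old cells, beside 10.3% of all genes. Igfbp4, which binds insulin-like growth factors and can also restrain Wnt signals, was listed in 75 young (91.5%, interval 83.2 to 96.5) and 64 old cells (82.1%, 95% bounds 71.7, 89.8), with a difference of -0.54. Tpbg was in 14 and 8, and the remaining 8 of these 10 inhibitors, Sost among them, were listed in no cell. Csnk1a1, a kinase of the complex that degrades beta-catenin, was in 47 and 35 cells, with a difference of -0.58. Tcf7l2, a transcription factor of the pathway, was in 61 young (74.4%) and 54 old cells (69.2%), and Gsk3b, another kinase of that complex, in 47 and 44.

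Of 13 Wnt target genes, 3 passed the filter and 1, Wisp2, was at least 0.5 lower in old cells, beside 10.3% of all genes. Wisp2, a secreted matrix protein, was listed in 44 young (53.7% with bounds 42.3 and 64.7) and 29 old cells (37.2%, interval 26.5 to 48.9), with a difference of -0.93. Tnfrsf19, a receptor, was in 30 and 26. Axin2, a common readout of the Wnt signal, was listed in 0 young and 1 old cell, and Lef1 in 0 and 1. The old cell with Axin2 stood at 49.7 FPKM and the one with Lef1 at 9.61 FPKM, and a value of 0 in the others can be a failed estimate. Within old cells Tnfrsf19 was in 19 of 39 cells listing Sfrp4 (48.7%) and 7 of 39 others (17.9%), and Wisp2 in 19 and 10. The exact intervals of both genes overlapped, and 21.7% of all genes were at least 20 points more frequent with Sfrp4. The median difference over all genes there was 10.3 points. Within young cells Tnfrsf19 was in 22 of 52 (42.3%) and 8 of 30 (26.7%), and Wisp2 in 29 (55.8%) and 15 (50%). The gene numbers of those sets differed as given above, and the part of gene number in these differences was not tested.

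**Figure D5:**
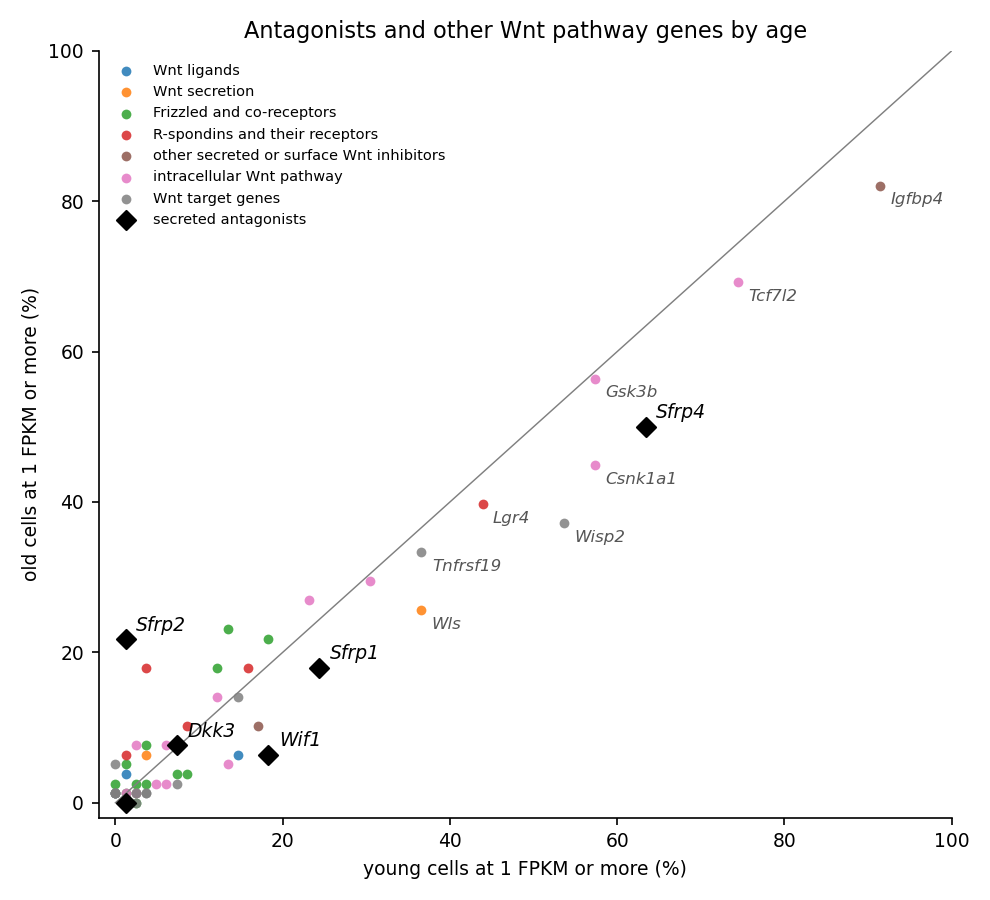
Share of young cells (%, horizontal axis) and of old cells (%, vertical axis) listing each antagonist (black diamonds) and each other Wnt pathway gene, where listed in any cell (coloured by role), with the line of equal shares. Sfrp2 stands above the line at 1.22% and 21.8%, and Sfrp4, Sfrp1 and Wif1 below it.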

How the data were processed

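The deposited table holds FPKM for 160 cells, 1 column a cell, captured on Fluidigm C1 circuits. Cufflinks 2.1.1 and the mouse build mm9 are named, per the submitters' processing notes. Wells not holding 1 intact cell were left out by microscopy, which left 83 young and 79 old wells of 96 each, per the labels' protocols, and no doublet caller was run here. How reads shared between genes were divided is not given in the sources used here. Of 31199 rows, 7751 lack a gene name and were not used. Rows sharing a name were summed. No antagonist stands in a row of joint symbols. Groups came from the sample titles. A gene was listed at 1 FPKM, log2 values had a pseudocount of 1, a difference counted from 0.5 in mean log2(FPKM + 1), and background genes were listed in at least 10% of the 160 cells. FPKM hold no counts, so no count model was used. The members and lists were chosen with earlier results of these data known. Named genes were the antagonists, from each pathway list the 2 genes listed in most cells and the one with the largest difference, and the 3 genes most like each widely listed antagonist. Lrp5, Lrp6, Kremen1, Kremen2, Sost, Axin2 and Lef1 fall outside that rule and were chosen after their values were seen, as were the markers shown. No 2 cells had identical columns. The shares and differences of mean log2 were checked on groups resampled from the young cells with planted changes. The other steps were not checked in that way. Values were computed with Python 3.11.15, numpy 2.4.6, pandas 2.3.3 and scipy 1.17.1.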

Additional observations from a re-analysis of the deposited data

Results flagged for a closer look

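A signal stood in data that no comparison used. Nameless rows of the table made up, at the median over cells, 47.2% of summed FPKM for the young and 43.8% for the old. Their identity was not examined.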

How the results depend on the processing

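No paired analysis was possible because the result comes from no test: each age is 1 sample, and the cell numbers only name cells. Sfrp2 was the 1 antagonist at least 0.5 higher in old cells under all 8 alternatives tried. The count of antagonists lower in old cells, 1 in the main setting, was 0 without cells of few genes, with a pseudocount of 10 and with a step of 1, and 2 (Sfrp4 and Wif1) with a pseudocount of 0.1. Among cells within the interquartile range of gene numbers it was 1, but the gene was Sfrp1 (-0.55) and not Sfrp4 (-0.06). The difference of Sfrp4 turned to 0.35 as a log2 ratio of mean FPKM. Cells with 2 or more antagonists were 58.5% of young and 48.7% of old cells when any value above 0 was counted, and 17.1% and 14.1% at 10 FPKM. The difference of Sfrp2 ran from 0.56 (pseudocount of 10) to 4.72 (log2 ratio of means). Leaving out cells whose summed FPKM exceeded 3 times the median, chosen after seeing the data, gave 1.26 for Sfrp2 and -0.77 for Sfrp4.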
